A study of Mus musculus with 8 samples.

Results

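Expression of 10 genes that control how long mRNAs last was followed in mouse macrophages (Mϕ): the tristetraprolin (TTP) family Zfp36, Zfp36l1 and Zfp36l2, the Regnases Zc3h12a and Zc3h12c, the Roquins Rc3h1 and Rc3h2, the AU-rich element binders Elavl1 (HuR) and Khsrp (KSRP), and the antiviral protein gene Zc3hav1 (ZAP). They were picked by symbol, matched to the Ensembl identifiers of the count table through the GENCODE annotation, and all 10 were found among the 55359 genes listed. Bone marrow-derived Mϕ (BMDMs) came from the femurs of adult C57BL/6 wildtype mice of both sexes and matured in 20 ng/mL M-CSF plus 20 ng/mL GM-CSF, which all groups shared. The 4 groups had 2 samples each: naïve BMDMs (Ctrl), naïve BMDMs stimulated over 6 h with LPS at 100 ng/mL together with IFNγ at 100 U/mL (LPS), BMDMs that had been with apoptotic fibroblasts for 16 h (Eff), and such efferocytic BMDMs that were washed and then received the same LPS/IFNγ stimulus (LPSEff). The apoptotic cells were NIH-3T3 fibroblasts, a mouse line modified so that 10 nM of a dimerizer switches on caspase-8, added at 5 per Mϕ. The dimerizer stayed at 10 nM through the 16 h of co-culture in Eff and LPSEff, and none is given for Ctrl and LPS. An effect of the dimerizer on the Mϕ therefore cannot be told apart from that of efferocytosis. CD45+ cells were then isolated with magnetic beads, and total RNA was sequenced. Whether the 2 samples of a group came from separate mice or cultures is not given in the sources used here, so that p-values measure only the spread between these samples.

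The samples held between 3481288 and 12020918 reads on genes, and the lowest value of any of the 10 genes in any sample was 88 reads. Macrophage markers stood at a summed 110471 to 165914 normalized counts per sample and none of the 10 was at or under 3 reads in both samples of any group. Of the other cell types, 15 fibroblast markers summed to 1163 to 1217 normalized counts in Ctrl, 1977 to 2425 in LPS, 4934 to 7553 in Eff and 9935 to 12401 in LPSEff. Their lowest group had 3 of the 15 at or under 3 reads in both samples. The 7 dendritic cell markers summed to 4425 to 9347 in Ctrl, 10441 to 22923 in LPS, 2629 to 5937 in Eff and 8147 to 12517 in LPSEff, with at most 2 of the 7 at or under 3 reads. Neutrophil markers summed to 643 to 973 in Ctrl, 1534 to 1745 in LPS, 1058 to 1399 in Eff and 1612 to 2176 in LPSEff, and lymphocyte markers never exceeded a summed 20.7. The summed fibroblast, dendritic and neutrophil markers were thus each higher in the stimulated group of both LPS/IFNγ comparisons, and their part in the LPS/IFNγ comparisons was not tested. NIH-3T3 cells are of mouse origin, so reads of the 10 genes from engulfed fibroblasts cannot be told apart from those of the Mϕ, and neither can fewer expressing cells from less RNA per cell.

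Inflammatory mRNAs such as Tnf and Il6 are short-lived because their 3′ UTRs carry signals for decay. AU-rich elements (AREs) are bound by the TTP family, which recruits the deadenylase CCR4-NOT, and by KSRP, which recruits decay enzymes, whereas HuR binds the same kind of element and stabilises the mRNA. Short stem-loops with a pyrimidine-purine-pyrimidine loop are bound by the Roquins and cut by the Regnases. ZAP binds CpG-rich RNA, chiefly of viruses. Several of these regulators are themselves made from short-lived mRNAs: TTP binds the ARE of its own mRNA, and Regnase-1, the product of Zc3h12a, cuts its own.

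The elements are shown first, because several of the 10 genes carry in their own mRNAs the very elements their products read. The full ARE nonamer TTATTTATT occurred in the annotated 3′ UTR of all 3 TTP family genes, once in each. The following lines give it in capitals with 10 bases on either side, 5′ to 3′ on the mRNA strand, beside the first such site of Tnf, their textbook target.
Zfp36: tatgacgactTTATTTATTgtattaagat
Zfp36l1: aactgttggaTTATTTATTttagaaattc
Zfp36l2: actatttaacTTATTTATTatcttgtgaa
Tnf: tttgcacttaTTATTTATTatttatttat
On GRCm39 these lie at chr7:28076376-28076404 in exon 2 of Zfp36, at chr12:80154941-80154969 in exon 2 of Zfp36l1, at chr17:84492342-84492370 in exon 2 of Zfp36l2 and at chr17:35418665-35418693 in exon 4 of Tnf, each on the minus strand and in the 3′ UTR of the GENCODE canonical transcript. Of the first 774 bases of the 3′ UTRs that were at least as long as that of Zfp36, 4.29% held the nonamer. The figure was 9.72% at the 1835 bases of Zfp36l1 and 10.8% at the 2049 bases of Zfp36l2. Tnf held 5 overlapping copies.

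Zc3h12a had the stem-loop instead. Its 3′ UTR of 856 bases held no ARE heptamer TATTTAT and 3 perfect stem-loops. A stem-loop was counted as 6 base pairs (G-T pairs allowed) around a loop of 3 bases in the order pyrimidine, purine, pyrimidine. The lines below show the 3 of Zc3h12a with the loop in capitals, together with stem-loops of known Regnase and Roquin targets.
Zc3h12a, stem-loop nearest the stop codon: gatacaCATtgtatc
Zc3h12a, middle stem-loop: aggcacCATgtgcct
Zc3h12a, last stem-loop: tttaaaTATtttaaa
Il6: gttataTGTtatagt
Nfkbiz: cactatTATatagtg
Tnfrsf4: gtatgcTATgcatac
Tnf: gttttcTGTgaaaac
The Zc3h12a elements lie at chr4:125012862-125012876, chr4:125012680-125012694 and chr4:125012456-125012470 (GRCm39, minus strand), all in the 3′ UTR part of exon 6. Of 3′ UTRs cut to the same 856 bases, 31.2% held at least 1 such stem-loop, and over all 20827 annotated 3′ UTRs there were 0.463 of them per 1000 bases. The others are 3′ UTR sites at chr5:30224770-30224784 (Il6, plus strand), chr16:55632949-55632963 (Nfkbiz, minus strand), chr4:156100998-156101012 (Tnfrsf4, plus strand) and chr17:35418561-35418575 (Tnf, minus strand). A match of letters is a description of the sequence and does not show that a protein binds there.

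Among all 10 genes, 7 held TATTTAT, 6 held the nonamer and 8 held a stem-loop, against 29.4%, 8.34% and 41.2% of all annotated 3′ UTRs. These shares are not matched for length. The 3′ UTRs of Zc3h12c, Rc3h1, Rc3h2 and Elavl1 are long, from 5833 to 7181 bases. Over 91% of 3′ UTRs cut to such lengths held a stem-loop, and 71.8% to 80.8% held TATTTAT. The nonamer was in 31.8%, 27.7% and 30.3% of 3′ UTRs cut to the lengths of Rc3h1, Rc3h2 and Elavl1. Elavl1 held 8 nonamers, most of them overlapping, in a single AT-rich stretch, and 1 is shown with the nonamer in capitals.
Elavl1: atttatttatTTATTTATTtttatttatt
It lies at chr8:4335776-4335804 on the minus strand, in exon 6. Khsrp held no TATTTAT and 1 stem-loop, and Zc3hav1, whose product reads CpG, held neither element.

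The mRNA levels of several of these genes changed with LPS/IFNγ, and none was called with efferocytosis when samples were treated as unpaired. In naïve BMDMs, 6 of the 10 genes passed the test (limma on log2(normalized count + 1), Benjamini-Hochberg adjusted p under 0.05 over 16309 genes), with 5 higher and 1 lower. Of all tested genes, 24% were called in this comparison, 12.4% higher and 11.6% lower. In efferocytic BMDMs, 5 of the 10 were called, 4 higher and 1 lower, against 19.7% of all tested genes, 10.7% higher and 8.95% lower, and without Eff replicate 1 the count was 3. These counts are from fits that treat samples as unpaired. Counted by groups that do not overlap, 7 of the 10 were higher and 2 lower in LPS than in Ctrl, where 28.4% and 30.9% of all tested genes were, and 8 were higher and 1 lower in LPSEff than in Eff, where 29.5% and 30.4% were. The median log2 fold change of the 10 was 0.88 in naïve and 0.74 in efferocytic BMDMs, and that of all tested genes was -0.01 and 0.01. The deposited scaling sets the middle gene near 0. With samples rescaled to equal totals instead, the median gene moved by -0.40 and -0.44, and the share of called genes that were higher went from 51.5% to 24.8% in naïve and from 54.6% to 21.8% in efferocytic BMDMs. On that scale 4 of the 10 were called in each comparison.

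**Figure D1:**
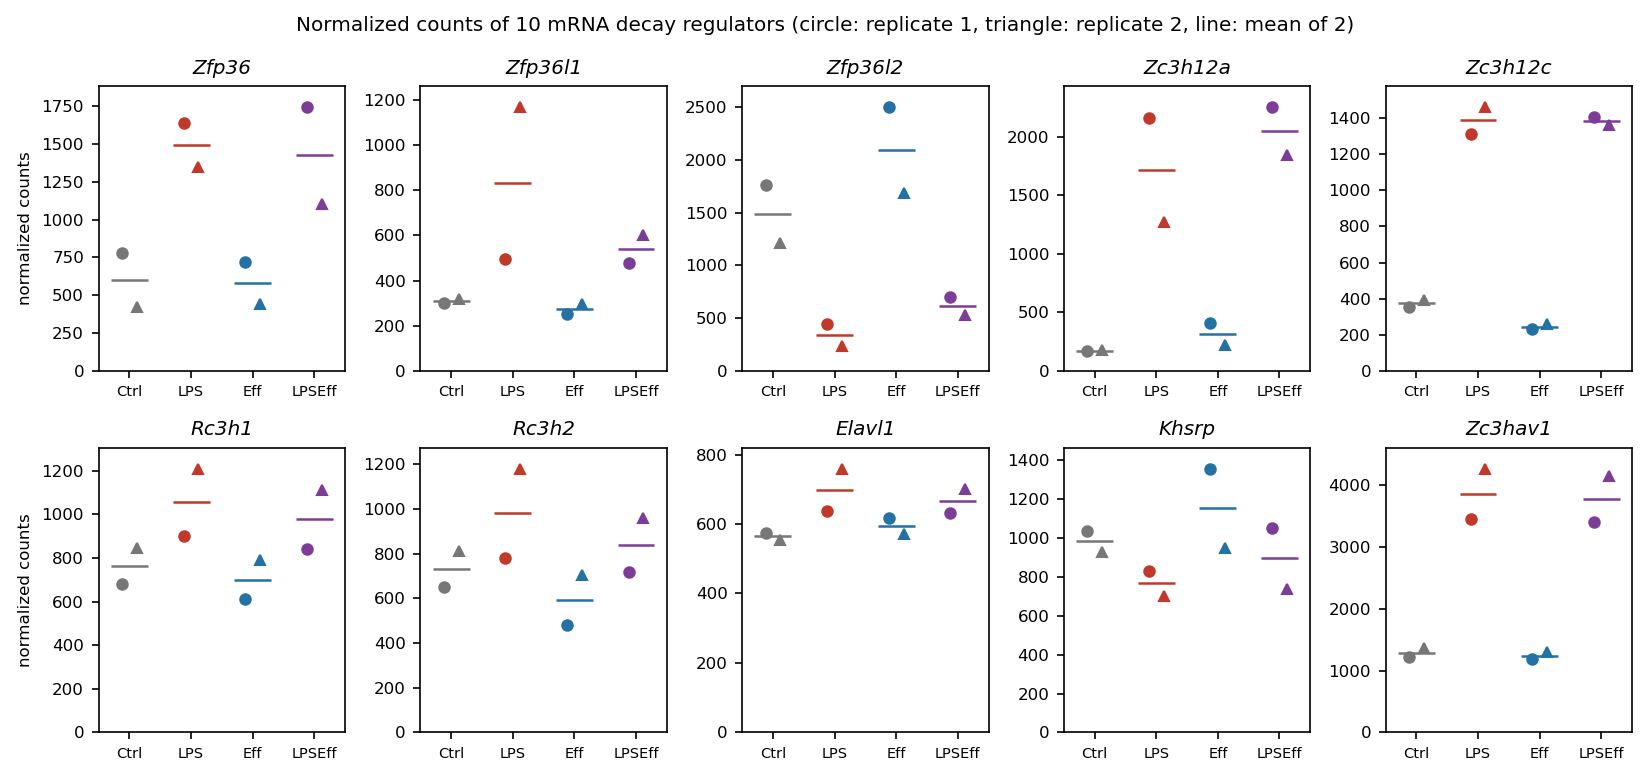
Normalized counts of the 10 genes in each sample (vertical axis, starting at 0) for the 4 groups on the horizontal axis, with circles for replicate 1, triangles for replicate 2 and a line at the mean of 2. Zc3h12a, Zc3h12c and Zc3hav1 sit far higher in both stimulated groups, Zfp36l2 sits lower, and Elavl1 stays between 555 and 760 in all 8 samples.

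Zfp36, the gene of TTP itself, read 781 and 423 normalized counts in the Ctrl samples, 1641 and 1347 after LPS/IFNγ, 719 and 440 after efferocytosis, and 1743 and 1105 after both. Each stimulated sample lay above each unstimulated one, and in every group the sample numbered 1 was the higher. The rise was 2.58-fold in naïve BMDMs (log2 fold change 1.37, SE 0.37, limma adjusted p = 0.0287) and 2.47-fold in efferocytic BMDMs (1.30, SE 0.37, limma adjusted p = 0.0396). These calls are close to the threshold. In naïve BMDMs the call was lost without Ctrl replicate 2 (log2 fold change 0.93, limma adjusted p = 0.166), without LPS replicate 1 (1.23, limma adjusted p = 0.114) and without LPS replicate 2 (1.51, limma adjusted p = 0.0584), and with equal totals (0.97, limma adjusted p = 0.0973) and quantile normalization (1.10, limma adjusted p = 0.0965). In efferocytic BMDMs it was lost without Eff replicate 1 (1.66, limma adjusted p = 0.0504), Eff replicate 2 (0.95, limma adjusted p = 0.212) or LPSEff replicate 1 (0.97, limma adjusted p = 0.215), and again with equal totals (0.85, limma adjusted p = 0.139) and quantile normalization (1.06, limma adjusted p = 0.114).

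Zfp36l2 moved the other way. This family member read 1767 and 1217 normalized counts in Ctrl and 2502 and 1689 in Eff, and only 444 and 241 in LPS and 702 and 532 in LPSEff. The highest stimulated sample lay below the lowest unstimulated one. The gene fell by 2.16 on the log2 scale in naïve BMDMs (SE 0.34, limma adjusted p = 0.00320), to 0.223 of its level, and by 1.75 in efferocytic BMDMs (SE 0.34, limma adjusted p = 0.00949), to 0.298 of its level. The first call held in all 19 alternatives, the leave-one-out fits among them. The second was lost in 2 of 19, without Eff replicate 1 (log2 fold change -1.46, limma adjusted p = 0.0698) and without LPSEff replicate 2 (-1.55, limma adjusted p = 0.0582).

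Zfp36l1, the remaining TTP relative, read 299 and 319 normalized counts in the Ctrl samples, 494 and 1169 after LPS/IFNγ, 252 and 296 after efferocytosis, and 477 and 603 after both. Stimulated samples lay above unstimulated ones, but LPS replicate 2 stood far above all the others. The naïve contrast was called (log2 fold change 1.30, SE 0.36, limma adjusted p = 0.0340). Without LPS replicate 2 it was 0.68 (limma adjusted p = 0.100). It was also lost without Ctrl replicate 1 (1.25, limma adjusted p = 0.140), without Ctrl replicate 2 (1.34, limma adjusted p = 0.115), with equal totals (0.90, limma adjusted p = 0.0592) and with only the 2 compared groups in the fit (1.30, limma adjusted p = 0.0714). In the same library the dendritic cell markers Xcr1, Flt3 and Ccr7 were high as well, at 636, 220.4 and 14409 normalized counts. In LPS replicate 1 they read 119, 82.8 and 7649. The summed dendritic cell markers also spread between the samples of Ctrl (4425 to 9347), Eff (2629 to 5937) and LPSEff (8147 to 12517). Zfp36l1 differed there by -0.094, -0.24 and -0.34 log2 units (replicate 1 minus replicate 2), against -1.24 in LPS. The part of dendritic cells in the Zfp36l1 value was not tested. In efferocytic BMDMs the contrast was 0.97 (95% interval 0.14 to 1.80, limma adjusted p = 0.101) and was not called. Among the other unpaired fits it was called with only the compared groups in the fit (0.97, limma adjusted p = 0.0274), with quantile normalization (0.91, limma adjusted p = 0.0490), by DESeq2 (1.00, adjusted p = 0.0263), and without LPS replicate 1 (0.97, limma adjusted p = 0.0128) or LPS replicate 2 (0.97, limma adjusted p = 0.0132).

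Levels can be compared between genes only per length, here as normalized counts per 1000 bases of the canonical transcript. On that scale the 3 TTP family genes summed to 839 and 573 in the Ctrl samples, 853 and 905 after LPS/IFNγ, 998 and 697 after efferocytosis, and 953 and 721 after both. Only the Ctrl and LPS samples did not overlap, by a narrow margin. The make-up of the sum was split by stimulation. Zfp36l2 held 55.9% and 56.5% of it in Ctrl and 66.6% and 64.4% in Eff, but 13.8% and 7.06% in LPS and 19.6% in both LPSEff samples. Zfp36 held 33.0% and 26.2% in Ctrl and 25.5% and 22.4% in Eff, and 68.1% and 52.7% in LPS and 64.8% and 54.3% in LPSEff. Before stimulation most of the family's message was therefore that of Zfp36l2, and after 6 h of LPS/IFNγ it was that of Zfp36, in each of the 8 samples. With 2 samples against 2, an exact permutation test of such a share cannot go below p = 0.333, so that none was run.

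**Figure D2:**
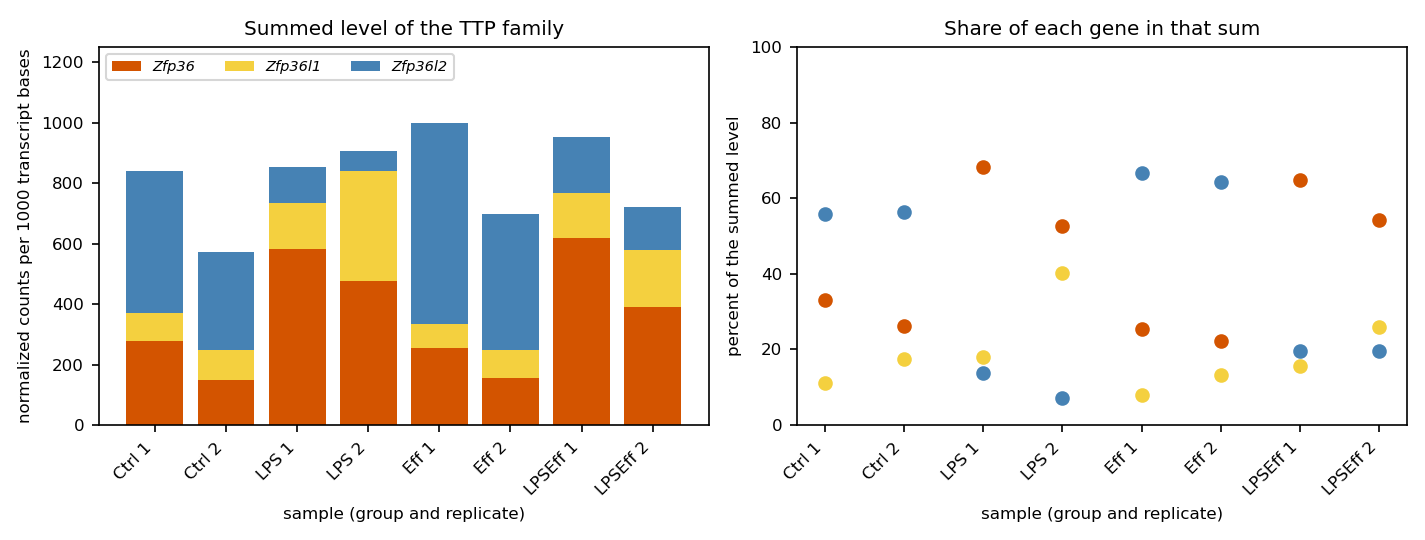
Left, the summed level of Zfp36, Zfp36l1 and Zfp36l2 per sample, as stacked bars in normalized counts per 1000 transcript bases. Right, the percent of that sum that each gene held, 1 point per gene and sample, with Zfp36l2 above 55% in the 4 unstimulated samples and below 20% in the 4 stimulated ones.

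Zc3h12a showed the largest fitted change of the 10 genes in both LPS/IFNγ comparisons. In efferocytic BMDMs its interval overlapped that of Zc3h12c (1.99 to 3.52 against 2.10 to 2.89). Without Eff replicate 2 its change was the smaller, at 2.32 against 2.58. Zc3h12a encodes Regnase-1, an endonuclease that destroys Il6 and other cytokine mRNAs. It read 168 and 181 normalized counts in the Ctrl samples and 2164 and 1272 after LPS/IFNγ. After efferocytosis it read 407 and 223, and after both 2255 and 1845. The lowest stimulated sample was above the highest unstimulated one by more than the whole range of the unstimulated samples. The level rose 9.48-fold in naïve BMDMs (log2 fold change 3.24, SE 0.33, limma adjusted p = 0.00043) and 6.75-fold in efferocytic BMDMs (2.76, SE 0.33, limma adjusted p = 0.00102). Both calls held in all 19 alternatives, with log2 fold changes from 2.84 to 3.63 and from 2.31 to 3.19.

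Zc3h12c, which encodes the relative Regnase-3, read 354 and 393 normalized counts in the Ctrl samples, 1314 and 1460 after LPS/IFNγ, 230.5 and 259 after efferocytosis, and 1404 and 1360.5 after both. The stimulated samples lay far above the unstimulated ones. It rose 3.70-fold in naïve BMDMs (log2 fold change 1.89, SE 0.17, limma adjusted p = 0.000248) and 5.64-fold in efferocytic BMDMs (2.50, SE 0.17, limma adjusted p = 5.99e-05), again in all 19 alternatives. The difference between both responses was 0.61 on the log2 scale (95% interval 0.05 to 1.16, unadjusted p = 0.0362 in the limma model, adjusted p = 1.00) and was not called. It came with lower values in Eff than in Ctrl and level values in LPSEff and LPS.

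Per 1000 transcript bases, the Regnase pair summed to 99.5 and 109 in Ctrl and 170 and 108 in Eff, and to 914 and 616 in LPS and 956 and 807 in LPSEff. Zc3h12a held 59.4% and 58.8% of the sum in Ctrl. Its share was 84.5% and 72.7% after efferocytosis, 83.6% and 73.0% after LPS/IFNγ, and 83.2% and 80.8% after both. All samples with either treatment lay above both Ctrl samples in this share.

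The Roquins, which bind the same kind of stem-loop but act through deadenylation, were not called in any comparison by limma, edgeR or DESeq2 with samples treated as unpaired. Rc3h1 (Roquin-1) read 680 and 847 normalized counts in the Ctrl samples, 901 and 1210 after LPS/IFNγ, 611 and 791 after efferocytosis, and 843 and 1112 after both. Rc3h2 (Roquin-2) read 649 and 810 in the Ctrl samples, 780 and 1180 after LPS/IFNγ, 479 and 704 after efferocytosis, and 719 and 961 after both. Both genes had higher means in the stimulated groups, and both had the higher value in replicate 2 of every group. The LPS/IFNγ difference of Rc3h1 was 0.46 in naïve BMDMs (95% interval -0.10 to 1.02, limma adjusted p = 0.220) and 0.48 in efferocytic BMDMs (95% interval -0.08 to 1.04, limma adjusted p = 0.221). That of Rc3h2 was 0.40 (95% interval -0.25 to 1.06, limma adjusted p = 0.361) and 0.52 (95% interval -0.14 to 1.17, limma adjusted p = 0.260). All 4 intervals reached from below 0 to above 1 on the log2 scale.

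Elavl1 and Khsrp, the ARE binders outside the TTP family, were not called in any comparison. Elavl1 read 575 and 555 normalized counts in the Ctrl samples, 636 and 760 after LPS/IFNγ, 618 and 571 after efferocytosis, and 632 and 702 after both. Each stimulated sample lay above each unstimulated one, by a small margin. The LPS/IFNγ difference was 0.30 in naïve BMDMs (95% interval -0.11 to 0.70, limma adjusted p = 0.270) and 0.16 in efferocytic BMDMs (95% interval -0.24 to 0.57, limma adjusted p = 0.582), and its sign depends on the scaling, since both turned negative with equal totals (-0.10 and -0.28). Khsrp read 1036 and 930.5 in the Ctrl samples, 832 and 702 after LPS/IFNγ, 1357 and 947 after efferocytosis, and 1049.8 and 740 after both. It was lower in both LPS samples than in both Ctrl samples, while LPSEff and Eff overlapped. The difference was -0.36 in each comparison (95% intervals -0.93 to 0.21 and -0.93 to 0.20, limma adjusted p = 0.343 and 0.364). For both genes the intervals exclude changes of the size seen for the Regnases. Part of the exons of Elavl1 lies opposite Ccl25, which averaged 45.3 normalized counts.

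Zc3hav1, the gene of ZAP, read 1217 and 1361 normalized counts in the Ctrl samples, 3457 and 4265 after LPS/IFNγ, 1180 and 1306 after efferocytosis, and 3404 and 4145 after both. The stimulated samples formed one level and the unstimulated ones another, whether or not apoptotic cells had been present. The rise was 2.98-fold in naïve BMDMs (log2 fold change 1.58, SE 0.20, limma adjusted p = 0.00103) and 3.02-fold in efferocytic BMDMs (1.60, SE 0.20, limma adjusted p = 0.00105), and both calls held in all 19 alternatives. The difference between both responses was 0.02 (95% interval -0.61 to 0.65).

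**Figure D3:**
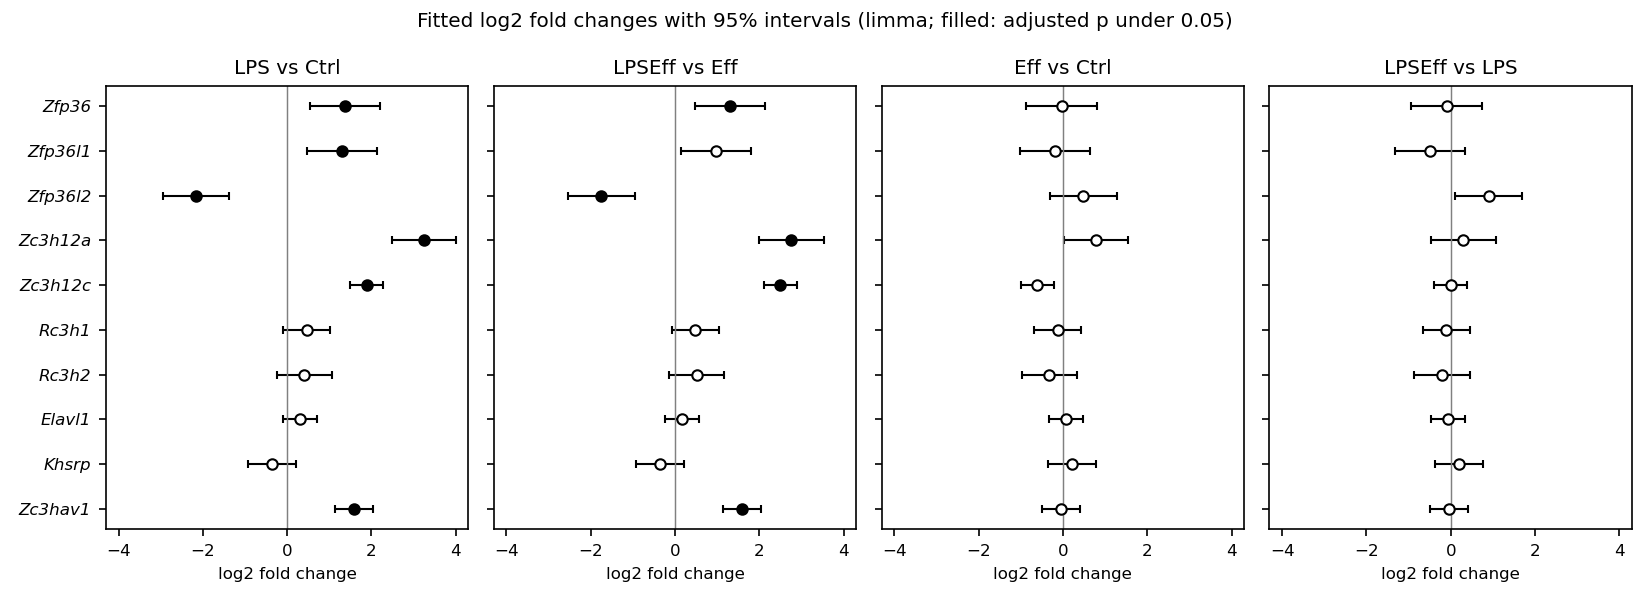
Fitted log2 fold changes (horizontal axis) of the 10 genes with 95% intervals in the 4 comparisons, filled where the limma adjusted p is under 0.05. Zc3h12a, Zc3h12c, Zc3hav1 and Zfp36 are filled to the right and Zfp36l2 to the left in both LPS/IFNγ comparisons, Zfp36l1 is filled only in the naïve one, and no point is filled in the 2 efferocytosis comparisons.

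Efferocytosis itself gave no call among the 10 genes when samples were treated as unpaired. Between Eff and Ctrl 0 of 10 passed, where 0.251% of all tested genes did (0.215% higher and 0.0368% lower), with 2 at an unadjusted p under 0.05 in limma and 0 called by edgeR or DESeq2. Between LPSEff and LPS 0 of 10 passed, where 0.773% of all tested genes did (0.73% higher and 0.0429% lower), with 1 at an unadjusted p under 0.05 and 0 called by edgeR or DESeq2. The median log2 fold change of the 10 was -0.04 and -0.05. Over both comparisons, 6 of the 10 had intervals within 1 log2 unit of 0 on either side: Zc3hav1, Elavl1, Khsrp, Rc3h1, Rc3h2 and Zfp36. Their log2 fold changes ran from -0.32 (Rc3h2, Eff vs Ctrl, 95% interval -0.98 to 0.34) to 0.21 (Khsrp, Eff vs Ctrl, 95% interval -0.36 to 0.77).

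Zc3h12c, Zc3h12a and Zfp36l2 gave the lowest unadjusted p-values. Both Eff samples of Zc3h12c (230.5 and 259) lay under both Ctrl samples (354 and 393), a difference of -0.61 (SE 0.17, unadjusted p = 0.00715 in the limma model, adjusted p = 0.389). Both Eff samples of Zc3h12a (407 and 223) lay above both Ctrl samples (168 and 181), a difference of 0.79 (95% interval 0.02 to 1.55, unadjusted p = 0.0457 in the limma model, adjusted p = 0.793). Both LPSEff samples of Zfp36l2 (702 and 532) lay above both LPS samples (444 and 241), a difference of 0.90 (95% interval 0.11 to 1.69, unadjusted p = 0.0300 in the limma model, adjusted p = 0.410). In Eff vs Ctrl the same gene differed by 0.49 (95% interval -0.30 to 1.28) with overlapping groups. With samples treated as unpaired, none of these differences was called. With the replicate number as a block, limma and edgeR called Zc3h12c in Eff vs Ctrl and Zfp36l2 in LPSEff vs LPS. The differences run beside the fibroblast markers, whose sum was higher in both Eff samples than in both Ctrl samples. That sum was also higher in both LPSEff samples than in both LPS samples. The part of fibroblast RNA in these differences was not tested. Without overlap between groups, 1 of the 10 was higher in Eff than in Ctrl, where 16.3% of all tested genes were, and 2 were lower, where 17.8% were. In LPSEff against LPS the counts were 1, where 19.3% of all tested genes were higher, and 0, where 17% were lower.

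Whether the LPS/IFNγ response differs between naïve and efferocytic BMDMs was tested as an interaction. It was called for 0 of the 10 genes, and for 0% of all tested genes, with limma, edgeR and DESeq2 alike. At an unadjusted p under 0.05 limma gave 1 of the 10, Zc3h12c. The interval of the difference was -1.25 to 1.12 for Zfp36, -1.50 to 0.85 for Zfp36l1, -0.70 to 1.53 for Zfp36l2 and -1.57 to 0.60 for Zc3h12a. A difference of 1 log2 unit between the responses lay within each of these intervals in at least 1 direction.

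Ordered by level per 1000 transcript bases, Ctrl samples were led by Zfp36l2 at 396 ± 103 (SD, n = 2), followed by Khsrp at 241 ± 18.3, Zc3hav1 at 232 ± 18.3 and Zfp36 at 213 ± 89.7. The last 3 of these overlapped in their samples, whereas Zfp36l2 stood apart from Khsrp. Zfp36l1 (96.3 ± 4.47) stood apart on either side, then Rc3h2, Rc3h1 and Elavl1 lay together between 65.5 and 70.4. Zc3h12a (61.5 ± 3.36) and Zc3h12c (42.6 ± 3.15) closed the order. The samples of Zc3h12a (59.1 and 63.9) overlapped with those of Rc3h1 (61.8 and 77.0) and Rc3h2 (62.7 and 78.1). They lay just under those of Elavl1 (66.7 and 64.3), and Zc3h12c lay apart from all the others. In LPS, Zc3hav1 (694 ± 103), Zc3h12a (606 ± 222) and Zfp36 (529 ± 73.9) led, with overlap between neighbours in this order. Both samples of Zc3hav1 (621 and 766) lay above both of Zfp36 (582 and 477). Zfp36l2 had dropped from the first place to the ninth, at 90.9 ± 38.1, where it overlapped with Rc3h2 and Elavl1.

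The Eff samples kept the leading order of Ctrl, with Zfp36l2 at 557 ± 153, Khsrp at 283 ± 71.2, Zc3hav1 at 223 ± 15.9 and Zfp36 at 205 ± 69.9. Zc3h12a came next at 111 ± 45.8 and overlapped with Zfp36l1 (85.4 ± 9.90), and Zc3h12c was last at 27.9 ± 2.30, apart from Rc3h2. In LPSEff the leaders were Zc3h12a (724 ± 102), Zc3hav1 (678 ± 94.2) and Zfp36 (505 ± 160), again without separation between neighbours. Below them Khsrp, Zfp36l1, Zfp36l2 and Zc3h12c overlapped in turn between 158 and 219, and the Roquins and Elavl1 were lowest, between 77.3 and 88.8.

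The promoters were read in the RefSeq windows of 250 bases before the start site (build GRCm38.p6), which were found for 9 of the 10 genes, all but Zfp36l2. Motifs were searched on both strands: the ISRE core (GAAA, any 2 bases, GAAA), CRE TGACGTCA, AP-1 TGANTCA, and the κB motif and CArG box by their usual consensus. Zfp36 alone held the CArG box, the site of serum response factor, which 1.47% of all 32851 windows held. Its window, at chr7:28379229-28379478 on the minus strand, is printed with the CArG box in capitals.
Zfp36: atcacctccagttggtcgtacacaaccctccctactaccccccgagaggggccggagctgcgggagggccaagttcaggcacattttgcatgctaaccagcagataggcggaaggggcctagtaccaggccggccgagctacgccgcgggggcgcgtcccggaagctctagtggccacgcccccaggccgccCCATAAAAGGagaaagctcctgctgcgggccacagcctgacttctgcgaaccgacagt
Zc3hav1 alone held the κB motif (3.9% of windows), 100 to 91 bases before the start. Zfp36l1 and Rc3h1 held AP-1 (6.75%). No window of the 9 held ISRE (2.98%) or CRE (1.55%), and the windows of Zc3h12a and Zc3h12c held none of the motifs searched, which says only that these letters are not in this stretch.

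Around the 10 genes, the other components of mRNA decay were taken from lists of known members. Of 20 related RNA-binding regulators, 15 were expressed enough to be tested, and 5 of them rose and 2 fell with LPS/IFNγ in naïve BMDMs, where 12.4% of all tested genes rose and 11.6% fell. In efferocytic BMDMs 5 rose and 1 fell, where 10.7% and 8.95% of all tested genes did. These shares apply to each list that follows, and 2 of 15 is near the share that fell. The largest changes were those of Arid5a, which shields stem-loops from Regnase-1 and read 112 and 141 normalized counts in Ctrl against 426 and 654 in LPS (log2 fold change 2.06 in naïve and 1.81 in efferocytic BMDMs, limma adjusted p = 0.00101 and 0.00205). Trim25, the E3 ligase that assists ZAP, followed with 1.74 and 1.86 (limma adjusted p = 0.00029 and 0.00019), and Cpeb4, a binder of cytoplasmic polyadenylation elements, with 1.67 and 1.72 (limma adjusted p = 0.00076 and 0.00071). The calls of the falls did not hold in every fit. Unpaired edgeR and DESeq2 also called the 2 falls in naïve BMDMs and the 1 in efferocytic BMDMs. With only the compared groups in the fit, 0 falls were called. Calls were also lost in fits without 1 library. In efferocytic BMDMs these included fits without a Ctrl library, a group outside that comparison.

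Of 11 enzymes that act on the regulators, 6 rose and 1 fell in naïve BMDMs and 5 rose and 1 fell in efferocytic BMDMs, with a median log2 fold change of 1.12 and 0.71. Malt1, the paracaspase that cleaves Regnase-1 and the Roquins, read 1986 and 2228 normalized counts in Ctrl and 7230.0 and 7795 in LPS, and changed by 1.83 and 2.11 (limma adjusted p = 0.000361 and 0.000171). Ikbke, an IκB kinase family member, changed by 1.82 and 1.90 (limma adjusted p = 0.0112 and 0.0108). Dusp1, the phosphatase that switches off p38, rose by 1.48 in naïve BMDMs (limma adjusted p = 0.0232), and Mapkapk2, the kinase that phosphorylates TTP, rose by 1.50 in efferocytic BMDMs (limma adjusted p = 0.00824). Without Eff replicate 2 or LPSEff replicate 1, only 2 of the 5 rises in efferocytic BMDMs remained called. The 1 fall was lost in naïve BMDMs without Ctrl replicate 2 or LPS replicate 2 and in efferocytic BMDMs without any library of Ctrl, Eff or LPSEff.

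The 3 branches of decay downstream of the regulators were counted separately. Of 19 deadenylation genes, CCR4-NOT subunits among them, 2 rose and 1 fell in naïve BMDMs, and 2 rose in efferocytic BMDMs. These counts were at or under the shares of all tested genes (12.4% and 11.6%, and 10.7%). Higher were Btg1 (log2 fold change 1.67 and 1.28, limma adjusted p = 0.0029 and 0.0109) and Pabpc1, the poly(A) binding protein (1.14 and 1.41, limma adjusted p = 0.00974 and 0.0045). The CCR4-NOT subunit gene Cnot9 was lower, in naïve BMDMs only by the call (-0.60, limma adjusted p = 0.0321). The Cnot9 call was lost without any 1 of the 8 libraries, and 1 of the 2 rises without Ctrl replicate 2 in naïve and without Eff replicate 2 or LPSEff replicate 1 in efferocytic BMDMs. With equal totals 4 deadenylation genes were lower in naïve and 6 in efferocytic BMDMs.

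Of 16 genes of decapping and decay from the 5′ end, 4 rose and 1 fell in naïve BMDMs and 2 rose and 1 fell in efferocytic BMDMs, against 24% and 19.7% of all tested genes called in either direction. Xrn1, the exonuclease of this branch, read 438 and 508 normalized counts in the Ctrl samples, 1586 and 1922 after LPS/IFNγ, 377 and 487 after efferocytosis, and 1199 and 1373 after both (log2 fold change 1.89 and 1.58, limma adjusted p = 0.00056 and 0.00142). Dcp2, the decapping enzyme, changed by 1.45 and 1.34 (limma adjusted p = 0.00422 and 0.00686), while Lsm2 of the Lsm ring changed by -0.90 and -0.96 (limma adjusted p = 0.0294 and 0.0258). The rises came down to 2 in naïve BMDMs without Ctrl replicate 1, Ctrl replicate 2 or LPS replicate 2 and to 1 in efferocytic BMDMs without Eff replicate 1, and the fall was lost without any library of the 2 groups compared. With equal totals 2 rose and 2 fell in naïve BMDMs, and 6 fell in efferocytic BMDMs.

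Of 18 genes of the exosome and decay from the 3′ end, 7 fell and 1 rose in naïve BMDMs and 5 fell in efferocytic BMDMs, with a median log2 fold change of -0.57 and -0.62 against -0.01 and 0.01 for all tested genes. Exosc2 read 179 and 200.1 normalized counts in the Ctrl samples, 53.0 and 41.6 after LPS/IFNγ, 246 and 193 after efferocytosis, and 59.4 and 79.9 after both. It fell by 1.99 and 1.65 on the log2 scale (limma adjusted p = 0.00139 and 0.00384), next to Exosc6 (-1.61 and -1.68, limma adjusted p = 0.0109 and 0.0104) and Exosc7 (-1.40 and -1.41, limma adjusted p = 0.00748 and 0.00837). The number of falls depended on the libraries: it came to 3 without Ctrl replicate 1 or LPS replicate 2 and to 4 without Ctrl replicate 2 in naïve BMDMs, and to 2 without Eff replicate 1 and 3 without LPSEff replicate 2 in efferocytic BMDMs. With equal totals 13 and 12 of the 18 were lower. The 1 rise was lost without any 1 of the 8 libraries.

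**Figure D4:**
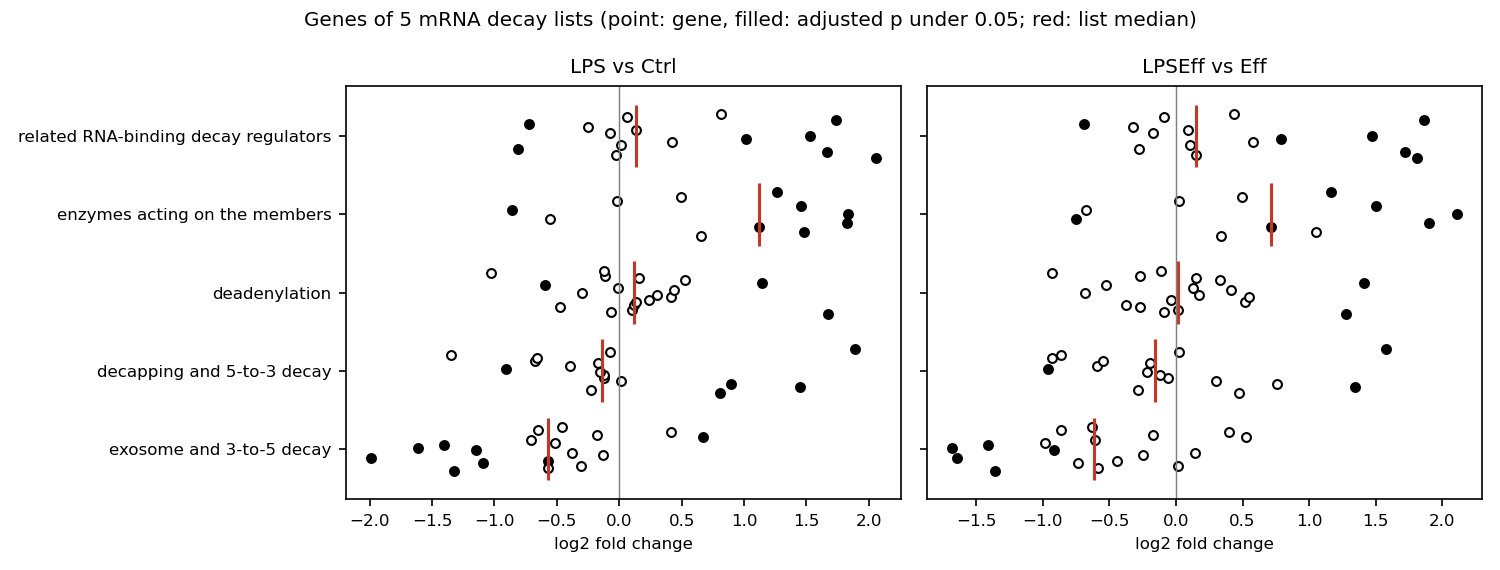
Log2 fold change (horizontal axis) of each tested gene in 5 lists of mRNA decay genes for both LPS/IFNγ comparisons, 1 point per gene, filled where the limma adjusted p is under 0.05, with a red line at the list's median. The exosome list lies mostly to the left, with medians of -0.57 and -0.62, and the enzymes that act on the 10 genes mostly to the right, with 1.12 and 0.71.

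Known targets of the ARE and stem-loop binders among the 10 mostly rose with LPS/IFNγ in the same samples. Of 16 such targets, all tested, 14 rose in naïve and 13 in efferocytic BMDMs, and 0 fell, where 12.4% and 10.7% of all tested genes rose. Il6 went from 11.4 and 15.6 normalized counts in Ctrl to 10573 and 8100 in LPS (log2 fold change 9.33, limma adjusted p = 1.28e-06) and from 17.5 and 24.0 in Eff to 6706 and 6060.0 in LPSEff (8.21, limma adjusted p = 2.42e-06). Ptgs2, the gene of cyclooxygenase-2, changed by 8.91 and 7.43, Il1b by 8.73 and 8.26, and Il12b by 7.41 and 7.62, each with a limma adjusted p under 0.05. Cxcl1, a neutrophil chemokine, changed by 7.98 in naïve BMDMs. In efferocytic BMDMs it went from 31.6 and 17.6 normalized counts in Eff to 2626 and 2009 in LPSEff. Il10 was at or under 1.90 in the 4 unstimulated samples and read 45.3 and 10.2 in LPS and 219 and 73.6 in LPSEff. It was called higher in both comparisons, and no fold is given because its unstimulated samples lay under 3 reads.

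Between the efferocytosis groups the targets were mostly not called with samples treated as unpaired. In Eff vs Ctrl limma called Ptgs2, at 83.8 and 86.7 normalized counts in Ctrl and 235 and 279 in Eff (log2 fold change 1.58, limma adjusted p = 0.0229), a call that was lost without any library of Ctrl, Eff or LPSEff, with only the compared groups in the fit and in edgeR. DESeq2 called Ptgs2 and also Il12b, which was lower (-1.52, adjusted p = 0.0141). Between LPSEff and LPS 0 of the 16 were called by limma or edgeR, 4 at an unadjusted p under 0.05 in limma, and the median of the list was -0.44 against -0.00 for all tested genes. Tnf read 16647 and 12948 in LPS and 7749 and 7573 in LPSEff, a difference of -0.94 (95% interval -1.51 to -0.36, limma adjusted p = 0.197) that limma did not call. DESeq2 called 3 targets lower there, namely Tnf (-0.97, adjusted p = 0.0398), Il12b (-1.30, adjusted p = 0.0210) and Csf2 (-2.88, adjusted p = 0.0373). mRNA level was the only measure here, and no decay rate was measured for any of these genes.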

How the data were processed

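rRNA-depleted total RNA of the 8 samples was sequenced. The authors trimmed reads with cutadapt, removed rRNA reads with bowtie2, aligned to mm39 with STAR, counted reads on genes with htseq-count and normalized with DESeq2; versions and annotation release are not given in the sources used here. The deposited signal is the normalized read count per gene, genes at 0 included. Every value was a whole multiple (tolerance 0.01) of its sample's smallest nonzero value, so that whole reads were recovered for count tests (100% whole). A level of 3 reads equals 1.73 to 5.71 normalized counts, which covers counting error only.

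Symbols, positions (GRCm39) and 3′ UTRs came from GENCODE vM39, in which 54749 of 55359 identifiers were found. Group means of all 4 groups were fitted with limma 3.58.1 (R 4.3.3, trend, 4 residual degrees of freedom) on log2(normalized count + 1). Genes had to average 10 or more over the samples, which left 16309, and p-values were adjusted over all of them by Benjamini-Hochberg at 0.05. Fold changes are on this scale, which understates changes of low genes. Alternatives were other pseudocounts (0.5, 5) and filters, only the compared groups, a replicate block, quantile normalization, equal totals, edgeR 4.0.16, DESeq2 1.42.0 and leaving out each sample. edgeR with the block was added after seeing the data. The tests were also run on simulated counts of independent samples with a fixed spread and no replicate effect. Same-numbered samples deviated together in the real data, so that run cannot show how often calls are false here.

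The 10 genes and all lists were chosen with earlier results of these data known. Genes named from a list are the 3 (5 for targets) largest called changes in a comparison, and Tnf, Csf2, Il12b, Il10, Ccl3 and Icos in the efferocytosis comparisons were named after their values were seen. The study's proteomic data were not analysed here.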

Additional observations from a re-analysis of the deposited data

Results flagged for a closer look

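Il6, a target of Regnase-1 and the Roquins, differed in opposite directions with efferocytosis in unstimulated and stimulated BMDMs. Both Eff samples (17.5 and 24.0 normalized counts) lay above both Ctrl samples (11.4 and 15.6). The log2 fold change was 0.58 (95% interval 0.02 to 1.14, limma adjusted p = 0.782). These unstimulated values are low, since 3 reads equal 5.71 normalized counts in Ctrl replicate 1. Both LPSEff samples (6706 and 6060.0) lay below both LPS samples (10573 and 8100), a log2 fold change of -0.54 (95% interval -1.10 to 0.02, limma adjusted p = 0.513). The difference between these effects was -1.12 (95% interval -1.91 to -0.33, unadjusted p = 0.0114 in the limma model, adjusted p = 1.00), so that it did not pass the correction over all genes. None of the 10 mRNA decay genes showed such a split. In the paper's RT-qPCR, basal cytokine expression did not change with efferocytosis alone, while IL-6 induced by LPS/IFNγ was lower.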

How the results depend on the processing

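Of 940 values of the 10 genes under the alternatives, 852 kept their direction and side of the threshold, 52 turned direction, 19 gained a call and 17 lost one. The calls of Zc3h12a, Zc3h12c and Zc3hav1 in both LPS/IFNγ comparisons and of Zfp36l2 in naïve BMDMs held in every alternative. Values that turned direction, none called, were Zc3h12c in LPSEff vs LPS (0.011, quantile normalization), Elavl1 in LPS vs Ctrl (-0.10, equal totals) and in LPSEff vs Eff (-0.020, quantile normalization, and -0.28, equal totals), and the interactions of Rc3h1 (-0.032) and Zc3hav1 (-0.029, both equal totals) and of Khsrp (0.0015 with edgeR and 0.018 with its replicate block). The cause was not tested.

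Leaving out 1 sample each, signs turned between -0.47 and 0.41 for Zfp36, -0.31 and 0.060 for Rc3h1, -0.052 and 0.47 for Khsrp and -0.13 and 0.029 for Zc3hav1 in Eff vs Ctrl. In LPSEff vs LPS the ranges were -0.43 to 0.23 for Zfp36, -1.12 to 0.12 for Zfp36l1, -0.085 to 0.68 for Zc3h12a, -0.079 to 0.073 for Zc3h12c, -0.32 to 0.10 for Rc3h1, -0.51 to 0.092 for Rc3h2, -0.19 to 0.065 for Elavl1, -0.046 to 0.46 for Khsrp and -0.18 to 0.12 for Zc3hav1. In the interaction they were -0.51 to 0.37 for Zfp36, -0.94 to 0.30 for Zfp36l1, -0.026 to 0.85 for Zfp36l2, -0.20 to 0.23 for Rc3h1, -0.19 to 0.41 for Rc3h2, -0.26 to 0.26 for Khsrp and -0.13 to 0.17 for Zc3hav1. The count of the 10 called in LPS vs Ctrl ran from 4 to 6, and in LPSEff vs Eff from 3 (without Eff replicate 1) to 6.

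Counts of list genes called in any of the 4 comparisons also moved. The enzymes gave 8, and 5 (without Ctrl replicate 2) to 7 with a sample left out. Deadenylation gave 3, and 9 with equal totals. Decapping gave 5, then 3 without a filter on low values, 2 with only the compared groups, 8 with equal totals and 3 (without Ctrl replicate 1 or 2) to 5 with a sample left out. The exosome list gave 8, then 5 without the filter, 5 with only the compared groups, 13 with equal totals and 5 (without Eff replicate 1 or 2) to 6 with a sample left out.

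The replicate number was not known to pair samples. Deviations of same-numbered samples correlated at r = 0.404 to 0.595 across genes in all 6 pairs of groups, a hint from the data with 2 numbers only. With the number as a replicate block, in limma and in edgeR, 8 of the 10 genes were called in LPSEff vs Eff (Rc3h1, Rc3h2 and Zfp36l1 added, adjusted p = 0.0129, 0.0121 and 0.00827 in limma), 8 in LPS vs Ctrl (Rc3h1 and Rc3h2 added, 0.0140 and 0.0348), 1 in Eff vs Ctrl (Zc3h12c, adjusted p = 0.0410 in limma), 1 in LPSEff vs LPS (Zfp36l2, adjusted p = 0.00606 in limma) and 0 in the interaction. The lists then gave 8 (limma) and 9 (edgeR) for deadenylation, 8 for decapping and 15 for the exosome. Of the targets, the limma block called 2 higher (Ptgs2, Cxcl1) and 1 lower (Il12b) in Eff vs Ctrl, and 1 higher (Il10) and 4 lower (Tnf, Il12b, Ccl3, Icos) in LPSEff vs LPS, where edgeR with the block called 6 lower. Calls over all genes rose from 3910 to 6717 in LPS vs Ctrl, from 3213 to 6033 in LPSEff vs Eff, from 41 to 436 in Eff vs Ctrl, and for LPSEff vs LPS from 126 to 1137. Without the block, DESeq2 gave 207 and edgeR 14 in Eff vs Ctrl, where dropping the filter on low values gave 79. In LPSEff vs LPS DESeq2 gave 368 and edgeR 126, and equal totals gave 5578 in LPSEff vs Eff. With 2 samples per group, small differences in Elavl1 and Khsrp are not resolved, and those of the Roquins pass only with the block.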

Other observations

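The genes whose pattern over the 8 samples was most like that of 3 of the regulators are given as a description, with no test, since all share the same libraries and the same split by LPS/IFNγ. For Zfp36 they were Pim1 (a serine/threonine kinase, Pearson r = 0.989 of the log2 values), Lgals9 (galectin-9, r = 0.988) and Kmt2d (a histone methyltransferase, r = 0.983), of which Pim1 read 2167 and 1382 normalized counts in Ctrl and 5893 and 4101 in LPS. For Zc3h12a they were Upp1 (uridine phosphorylase, r = 0.997), the chemokine gene Cxcl1 (r = 0.994) and Slc23a2 (a vitamin C transporter, r = 0.994), and Upp1 shared with Zc3h12a the higher value of Eff replicate 1, at 1264 against 706 in Eff replicate 2. For Zc3hav1 they were Map4, Vps54 and Snx10 (each r = 0.998), of which Vps54 read 339 and 341 normalized counts in Ctrl, 308 and 355 after efferocytosis, 984 and 1275 after LPS/IFNγ, and 955 and 1147 after both.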
